A study of Mus musculus with 6 samples.

Results

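The genes described are Trp53, which encodes p53, and 9 genes known as its targets or partners: Mdm2, Cdkn1a, Ccng1, Phlda3, Bax, Trp53inp1, Sesn1, Zmat3 and Eda2r. They were taken by symbol, and all 10 were found among the 46095 gene symbols of the deposited table. The study asked how the loss of ARRB1 (beta-arrestin 1, which binds activated G protein-coupled receptors) acts on diet-induced fatty liver disease. RNA-seq was done on liver material labelled hepatocyte from C57BL/6 mice, 3 libraries with the title HFD-ARRB1-KO (ARRB1 -/-) and 3 wild-type (WT) libraries, and both groups had a high-fat diet (HFD) for 26 weeks. The labels do not give the age or sex of the mice, how the allele was made, or in which cells the gene was lost. The genotype labels of knockout replicates 2 and 3 read ARRB2-/- and ARRB3-/-, against their titles and the design text, which say ARRB1. The calls of members, pathway genes and cell type markers are therefore also given without those libraries.

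p53 is a transcription factor that accumulates when DNA is damaged or cells are stressed. It switches on genes that halt the cell cycle, repair DNA, limit growth signalling or start cell death, and it also switches on Mdm2, whose protein marks p53 for destruction and so closes a feedback loop. p53 is regulated largely through the stability of its protein, which mRNA levels do not report. In the liver the pathway is known for its part in the response of hepatocytes to toxins, to altered ploidy and to lipid overload.

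Arrb1, the targeted gene, was at 0.918, 1.05 and 1.16 FPKM in knockout replicates 1 to 3, against 3.86, 22.7 and 16.9 FPKM in WT replicates 1 to 3 (fragments scaled to gene length and library depth, as deposited). Values per library are given in this replicate order throughout. Every knockout library was below every WT library, and WT replicate 1 was the lowest of the WT libraries. Reads recovered from the FPKM steps came to 13354411, 33873322 and 28137583 in the knockout libraries and 31992348, 26947953 and 29107022 in the WT libraries, so knockout replicate 1 was the shallowest. Hepatocyte markers summed to between 47895 and 56320 FPKM in knockout libraries and between 50645 and 59081 FPKM in WT libraries. Of the 12 tested, 5 had a positive log2 fold change in the knockout and 7 a negative one. Cps1, Serpina1a and Tat were called lower, where 1.6% of all tested genes were called lower. Markers of other cells were present too. Monocyte-derived macrophage markers summed to between 65.0 and 170 FPKM in knockout libraries and between 39.4 and 74.0 FPKM in WT libraries. These ranges overlapped through Spp1, which is also a cholangiocyte marker in the lists used. Spp1 was then left out, a choice made after the values were seen. Without it the sums were 35.6 to 81.1 FPKM in knockout libraries and 16.2 to 25.9 FPKM in WT libraries. In this list 3 of 8 tested were called higher (Mmp12, Gpnmb and Lgals3), where 5.3% of all tested genes were called higher. None of the 9 listed was at 0 in all libraries. Of the 8 tested, 4 had a WT mean under the 1 FPKM filter described below, Mmp12 and Gpnmb among them. Mmp12 and Gpnmb were thus tested only because of their knockout values, so the count of 3 cannot be set directly against that share. Endothelial markers summed to 115 to 130 FPKM in knockout libraries and 101 to 114 FPKM in WT libraries. Lyve1 and Pecam1 were called higher of 8, of which 6 had a positive log2 fold change and 2 a negative one. Of the 9 Kupffer cell markers 6 had a positive log2 fold change and 3 a negative one, and limma called Vsig4 alone, as lower. At an unadjusted p under 0.05, 1 Kupffer cell marker was higher and 2 were lower, and voom called 0 higher and 1 lower. Limma called 0 of 8 stellate, 0 of 4 cholangiocyte and 0 of 4 erythroid markers. At an unadjusted p under 0.05, 2 stellate markers were higher, 2 erythroid markers were lower and 0 cholangiocyte markers differed. Log2 fold changes were positive for 7 stellate markers and negative for 1. They were positive for 2 cholangiocyte markers and negative for 2, and negative for all 4 erythroid markers. Voom called 0 in each of these lists. All 8 lymphocyte markers were below the filter. The part of these cell types in the results below was not tested, and in bulk RNA a different share of a cell type cannot be told from a different level per cell.

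The DNA element that p53 binds is a pair of half-sites of 10 bases each. The 250 bases before each RefSeq start site (GRCm38.p6) were searched for the p53 half-site, a palindrome, so that both strands are read at once. Windows were found for 8 of the 10 members, with 2 start sites each for Cdkn1a and Sesn1. Trp53inp1 and Zmat3 had no window in the table used. An exact half-site stood in 6 of these 10 windows, and in 7.13% of all 32851 windows. A pair of half-sites, each with at most 1 mismatch outside its fixed C and G and with a spacer of at most 13 bases, stood in 2 of the 10 windows, those of Ccng1 and of the upstream start of Cdkn1a, and in 2.20% of all windows. A match is a description of the letters and does not show binding. The windows below are shown because they hold those pairs and the half-site of Mdm2, the feedback gene. They are Ccng1 (chr11:40755287-40755536, minus strand), Cdkn1a (chr17:29090729-29090978, plus strand, before a start site that lies 2790 bases upstream of the second one) and Mdm2 (chr10:117710759-117711008, minus strand). Capitals mark exact half-sites and the pairs.
Ccng1: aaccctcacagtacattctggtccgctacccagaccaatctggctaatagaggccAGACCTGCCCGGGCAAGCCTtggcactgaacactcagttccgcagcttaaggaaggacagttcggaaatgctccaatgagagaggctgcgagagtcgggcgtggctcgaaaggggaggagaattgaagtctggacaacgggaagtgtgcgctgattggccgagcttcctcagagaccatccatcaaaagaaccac
Cdkn1a: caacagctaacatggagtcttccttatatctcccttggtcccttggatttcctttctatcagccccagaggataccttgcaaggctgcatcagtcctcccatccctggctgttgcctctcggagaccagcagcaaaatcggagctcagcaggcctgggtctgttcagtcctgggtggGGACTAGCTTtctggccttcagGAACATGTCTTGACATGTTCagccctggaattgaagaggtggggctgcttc
Mdm2: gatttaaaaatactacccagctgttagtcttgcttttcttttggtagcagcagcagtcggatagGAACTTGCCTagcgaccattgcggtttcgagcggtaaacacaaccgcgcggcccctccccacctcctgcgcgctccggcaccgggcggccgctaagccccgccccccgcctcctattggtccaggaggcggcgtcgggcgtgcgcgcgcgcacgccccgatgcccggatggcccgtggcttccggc
In Ccng1 the pair had no spacer and lay from base -195 to base -176 of the start. In Cdkn1a the exact half-sites began at bases -73 and -51, and the second was followed directly by a half-site with 1 mismatch. The Cdkn1a window at the downstream start and the windows of Eda2r, Phlda3 and the upstream start of Sesn1 held no exact half-site.

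**Figure D1:**
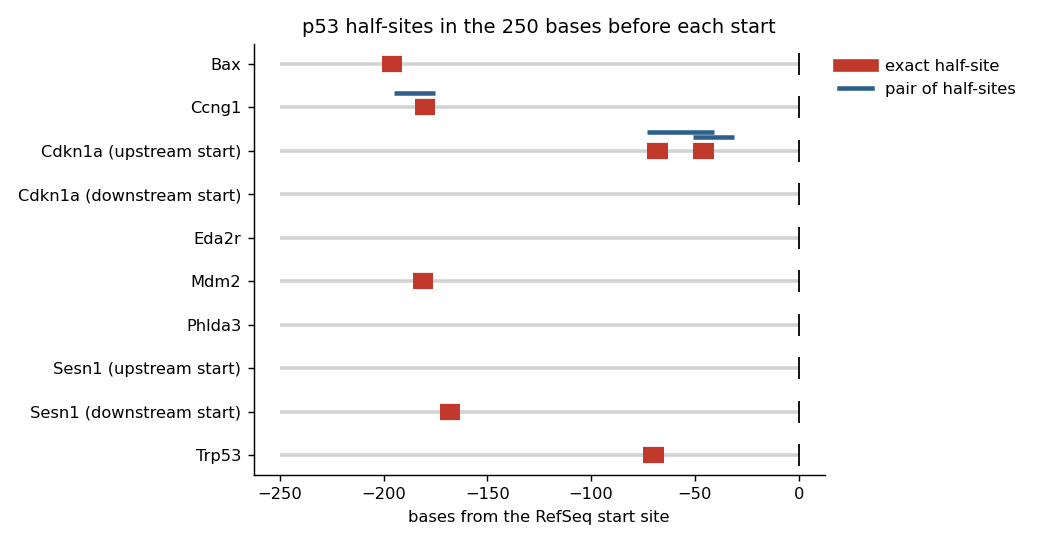
Position of p53 half-sites in the 250 bases before the RefSeq start sites of 8 members, in bases from the start. Red blocks are exact half-sites and blue lines are pairs of half-sites; pairs lie in the windows of Ccng1 and of the upstream Cdkn1a start.

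The members were compared between knockout and WT libraries on log2(FPKM + 1) with limma, fitted over the 10633 genes whose mean reached 1 FPKM. A gene was called at a Benjamini-Hochberg adjusted p under 0.05. Of the 10 members 9 were tested, and Eda2r was below the filter. Ccng1, Phlda3 and Zmat3 were called higher in the knockout. That is 3 of 9, while 5.3% of all tested genes were called higher. Phlda3 passed the filter only through its knockout values, and of the 8 members with a WT mean over the filter 2 were called. Limma called 0 members lower (1.6% of all tested genes), with 0 members lower at an unadjusted p under 0.05 and 0 lower by voom on recovered reads. By voom the same 3 members were higher, with 7.42% of all genes called higher. The median log2 fold change was 0.35 over the 9 tested members and 0.07 over all tested genes. The members were chosen with earlier results of these data known, so these counts describe them and test nothing. Across all genes 76.8% of calls were higher as deposited. This share was 85.2% with TPM, 60.9% with median-of-ratios factors and 64.5% with quantile normalization. The same 3 members were called higher under each of these scalings. Of all tested genes, 9.31% were called higher with TPM, 3.31% with median-of-ratios factors and 3.49% with quantile normalization.

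**Figure D2:**
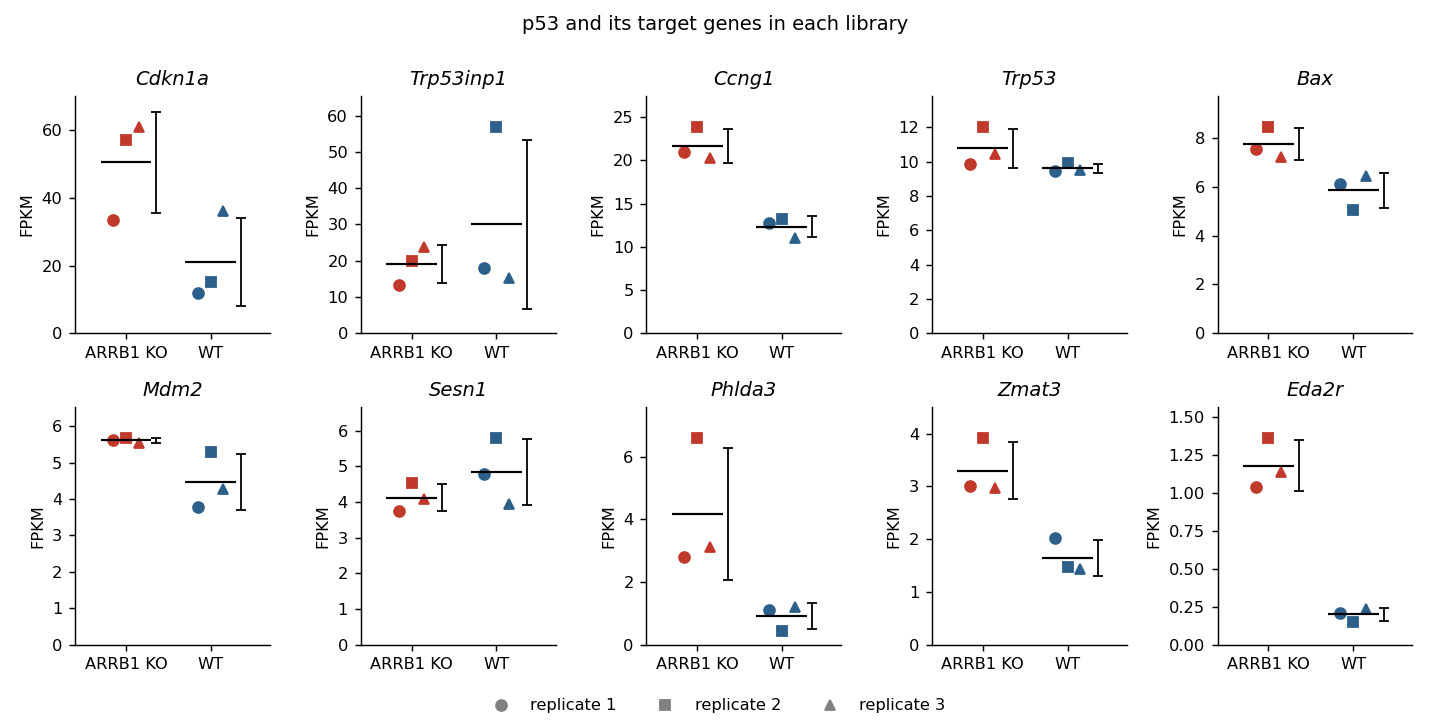
FPKM of the 10 members in each library, with ARRB1 knockout left of WT in each panel. Horizontal lines are group means and bars beside them are SDs (n = 3); the groups of Ccng1, Bax, Mdm2, Phlda3, Zmat3 and Eda2r do not overlap, while WT replicate 3 of Cdkn1a and WT replicate 2 of Trp53inp1 stand above the other WT libraries.

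Trp53 itself (chromosome 11, 69580359 to 69591873, plus strand, GRCm38) was not called. It was at 9.85, 12.03 and 10.4 FPKM in the knockout libraries, against 9.44, 9.89 and 9.49 FPKM in the WT libraries. Only knockout replicates 2 and 3 lay above all WT libraries, and the groups overlapped. The log2 fold change was 0.15 ± 0.0944 (SE; limma, adjusted p = 0.373), with a 95% interval from -0.07 to 0.37. The mean over all 6 libraries, 10.2 FPKM, was above that of 60.9% of the tested genes.

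Mdm2 encodes the ubiquitin ligase that keeps p53 low (chromosome 10, 117688875 to 117710758, minus strand). It was at 5.61, 5.68 and 5.55 FPKM in the knockout libraries, against 3.79, 5.30 and 4.29 FPKM in the WT libraries. Each knockout library was above each WT library, and the knockout libraries lay close together while the WT libraries were spread. Its log2 fold change was 0.29 ± 0.115 (SE), with a 95% interval from 0.02 to 0.55, and was not called (limma, adjusted p = 0.174).

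Ccng1 encodes cyclin G1, a partner of protein phosphatase 2A that acts on Mdm2 (chromosome 11, 40748552 to 40755311, minus strand). It was at 20.9, 23.9 and 20.2 FPKM in the knockout libraries, against 12.8, 13.2 and 10.99 FPKM in the WT libraries. The groups were far apart relative to their spread. The means were 21.7 ± 1.96 FPKM in the knockout and 12.3 ± 1.19 FPKM in WT (SD, n = 3 each), a ratio of 1.76. On the log2 scale the knockout was higher by 0.77 ± 0.104 (SE; limma, adjusted p = 0.00959), and a two-sided exact permutation test gave p = 0.1, which is as low as 3 against 3 can go. Ccng1 was called with any 1 library left out, with adjusted p from 0.0218 to 0.0431 by limma. It rested on 1015 to 2924 reads per library, and its promoter window holds the pair of half-sites shown above.

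Cdkn1a encodes p21, the inhibitor of cyclin-dependent kinases through which p53 halts the cell cycle (chromosome 17, 29090976 to 29100727, plus strand). It was the member with the highest mean level. It was at 33.5, 57.0 and 61.1 FPKM in the knockout libraries, against 11.9, 15.2 and 36.0 FPKM in the WT libraries. WT replicate 3 lay above knockout replicate 1, so the groups overlapped. The means were 50.5 ± 14.9 FPKM in the knockout and 21.1 ± 13.1 FPKM in WT (SD, n = 3 each). The log2 fold change of 1.33 ± 0.391 (SE), with a 95% interval from 0.43 to 2.24, was not called (limma, adjusted p = 0.0837; exact permutation p = 0.2). Without WT replicate 3 it was 1.79 and called (limma, adjusted p = 0.0229), and with any other library left out the adjusted p ran up to 0.235. In GRCm38 a stretch of 7.68% of its exonic bases also belongs to an unconfirmed gene on the opposite strand, and reads of the pair cannot be told apart without strand.

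Phlda3 encodes a pleckstrin homology protein that keeps the kinase Akt from the membrane (chromosome 1, 135766119 to 135769136, plus strand). It was at 2.79, 6.61 and 3.11 FPKM in the knockout libraries, against 1.10, 0.440 and 1.21 FPKM in the WT libraries. The groups did not overlap, and knockout replicate 2 stood well above the other libraries. The WT mean of 0.920 FPKM is under the filter, so the gene was tested only because of its knockout values. The ratio of means was 4.54, and the log2 fold change was 1.38 ± 0.284 (SE; limma, adjusted p = 0.0328). WT replicate 2 held 18 reads of it, and the other libraries 54 to 340. The call held without knockout replicate 1 and was lost without knockout replicate 2 (limma, adjusted p = 0.0672) or 3 (0.0560) and without WT replicate 1 (0.0726), 2 (0.111) or 3 (0.0567).

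Bax encodes a pore-forming protein of the mitochondrial route to cell death (chromosome 7, 45461697 to 45466898, minus strand). It was at 7.55, 8.45 and 7.21 FPKM in the knockout libraries, against 6.10, 5.05 and 6.42 FPKM in the WT libraries. Each knockout library was above each WT library. The difference was 0.35 ± 0.109 on the log2 scale (SE), with a 95% interval from 0.10 to 0.61, and was not called (limma, adjusted p = 0.0950). Another annotated gene on the same strand shares 12.2% of its exonic bases, so some of its reads may belong there.

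Eda2r encodes a receptor of the tumour necrosis factor receptor family that binds ectodysplasin A2 (chromosome X, 97333840 to 97377216, minus strand). It was the lowest of the members, at 1.04, 1.36 and 1.14 FPKM in the knockout libraries, against 0.210, 0.151 and 0.236 FPKM in the WT libraries. The groups were far apart, on 89 to 294 reads in knockout libraries and 26 to 44 reads in WT libraries. The ratio of means was 5.93, with 1.18 ± 0.166 FPKM in the knockout and 0.199 ± 0.0433 FPKM in WT (SD, n = 3 each). With no filter on low values the log2 fold change was 0.86 ± 0.0830 (SE; limma, adjusted p = 0.0304), and this scale understates the change of so low a gene.

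Zmat3 encodes an RNA-binding zinc finger protein (chromosome 3, 32334792 to 32366014, minus strand). It was at 3.01, 3.92 and 2.96 FPKM in the knockout libraries, against 2.03, 1.47 and 1.43 FPKM in the WT libraries. The groups did not overlap, and the ratio of means was 2.01. The log2 fold change was 0.70 ± 0.138 (SE; limma, adjusted p = 0.0278). The call was lost without knockout replicate 2 (limma, adjusted p = 0.0997) or 3 (0.0554) and without WT replicate 2 (0.105) or 3 (0.0698).

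Trp53inp1 and Sesn1, which encode a stress-induced nuclear and autophagy protein and a sestrin that restrains the growth kinase complex mTORC1, did not share the direction of the others. Trp53inp1 (chromosome 4, 11156431 to 11174379, plus strand) was at 13.4, 20.04 and 23.9 FPKM in the knockout libraries, against 18.0, 57.0 and 15.2 FPKM in the WT libraries. WT replicate 2 stood apart from all other libraries. Its log2 fold change, -0.42 ± 0.455 (SE; limma, adjusted p = 0.612), turned to 0.16 without that library. Sesn1 (chromosome 10, 41809935 to 41908424, plus strand) was at 3.75, 4.52 and 4.09 FPKM in the knockout libraries, against 4.77, 5.80 and 3.95 FPKM in the WT libraries, and the groups overlapped. Its log2 fold change was -0.18 ± 0.132 (SE; limma, adjusted p = 0.433), with a 95% interval from -0.49 to 0.13.

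**Figure D3:**
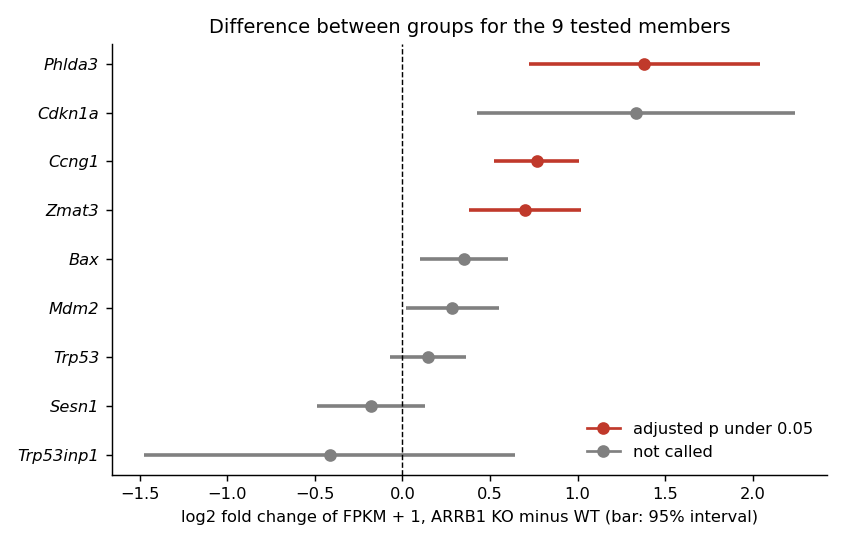
Log2 fold change of FPKM + 1, ARRB1 knockout minus WT, for the 9 tested members, with 95% intervals from limma. Ccng1, Phlda3 and Zmat3 (red) were called; the interval of Cdkn1a runs from 0.43 to 2.24 and that of Trp53inp1 from -1.47 to 0.64.

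In the knockout the order of mean FPKM was Cdkn1a, Ccng1, Trp53inp1, Trp53, Bax, Mdm2, Phlda3, Sesn1, Zmat3 and Eda2r. Ccng1 and Trp53inp1 overlapped across knockout libraries, the range of Phlda3 took in those of Mdm2, Sesn1 and Zmat3, and Sesn1 overlapped Zmat3. In WT it was Trp53inp1, Cdkn1a, Ccng1, Trp53, Bax, Sesn1, Mdm2, Zmat3, Phlda3 and Eda2r. Across WT libraries Cdkn1a overlapped both Trp53inp1 and Ccng1, which did not overlap each other, while Bax, Sesn1 and Mdm2 all overlapped. The mean was higher in the knockout for 8 members and lower for 2. Groups did not overlap for 5 of the 9 tested members, all higher in the knockout, and 23.4% of all tested genes were higher in this way. For 0 members was every knockout library below every WT library, which held for 7.81% of all tested genes. Knockout replicate 2 was the highest library for 7 of the 10 members and WT replicate 2 for 2 of them. Knockout replicate 2 was also the deepest library and had the highest summed macrophage markers, 170 FPKM. Among WT libraries the highest value was 3.02 times the lowest for Cdkn1a and 3.75 times for Trp53inp1, against 1.05 times for Trp53 and 1.21 times for Ccng1.

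The count of 3 higher members depended on which library was left out. It was 1 without knockout replicate 2, without knockout replicate 3 or without WT replicate 2, 2 without WT replicate 1 or 3, and 3 without knockout replicate 1. Over all tested genes the share called higher was 3.97%, 0.890% and 2.41% without knockout replicates 1, 2 and 3, and 2.27%, 1.10% and 3.09% without WT replicates 1, 2 and 3, against 5.3% with all 6 libraries. Limma was also run with knockout replicates 2 and 3 left out for their genotype labels, which leaves 1 knockout library. In that comparison of 1 knockout library with 3 WT libraries, in which the lone library was assumed to vary like the others, the log2 fold changes were 0.72 for Ccng1 (adjusted p = 0.144), 1.01 for Phlda3 (0.227) and 0.61 for Zmat3 (0.252). For Cdkn1a it was 0.80 (0.557), with knockout replicate 1 inside the WT range, and Eda2r, untested there, was above all WT libraries. Of the markers called above, Lyve1 alone was called in it (limma, adjusted p = 0.0428), while Gpnmb and Mmp12 were below the filter.

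**Figure D4:**
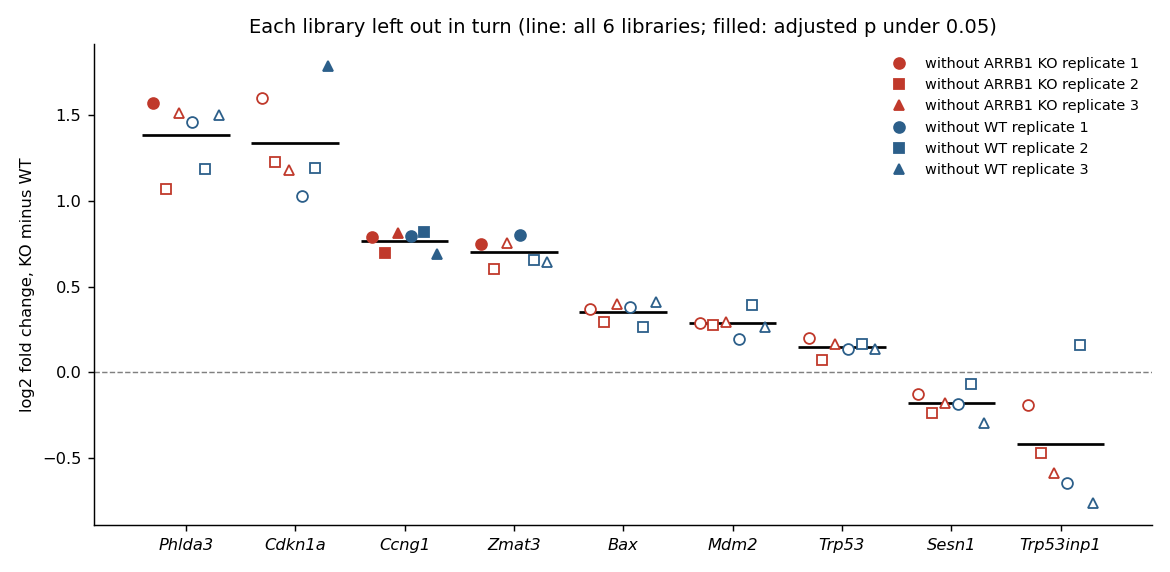
Log2 fold change, ARRB1 knockout minus WT, of the 9 tested members with each library left out in turn; black lines give the value with all 6 libraries and filled symbols an adjusted p under 0.05. Ccng1 is filled for every library left out, Cdkn1a only without WT replicate 3, and Trp53inp1 crosses 0 without WT replicate 2.

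Other genes of the pathway were listed by role, 61 genes of which 60 were found and 47 were tested. Limma called 6 of the 47 higher, where 5.3% of all tested genes were higher. It called 0 lower, with 1 lower at an unadjusted p under 0.05 and 0 lower by voom. Of the 47, 3 passed the filter with a WT mean under 1 FPKM. The median log2 fold change was 0.15, against 0.07 over all tested genes. Among 10 tested apoptosis targets Fas, a death receptor, and Aen, a nuclease, were higher. Fas was at 16.4, 16.5 and 18.3 FPKM in the knockout libraries, against 11.9, 11.9 and 11.3 FPKM in the WT libraries, with no overlap (log2 fold change 0.51 ± 0.0822, SE; limma, adjusted p = 0.0166). Aen was at 7.41, 10.6 and 8.70 FPKM in the knockout libraries, against 5.37, 3.67 and 5.59 FPKM in the WT libraries (limma, adjusted p = 0.0405). Bbc3, the gene of the death protein Puma and chosen after its values were seen, went the other way. It was at 3.41, 3.94 and 3.50 FPKM in the knockout libraries, against 4.98, 5.01 and 4.54 FPKM in the WT libraries, a difference of -0.34 ± 0.0931 on the log2 scale (SE) that was not called (limma, adjusted p = 0.0709) but was called with median-of-ratios factors, quantile normalization or array weights.

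Of 12 tested targets with roles in metabolism and redox balance 3 were higher. Dglucy (listed as 9030617O03Rik), a gene of D-glutamate metabolism, was at 26.8, 23.7 and 19.9 FPKM in the knockout libraries, against 12.7, 12.9 and 12.9 FPKM in the WT libraries (log2 fold change 0.81 ± 0.113, SE; limma, adjusted p = 0.0103). Ephx1, microsomal epoxide hydrolase, was at 264, 314 and 237 FPKM in the knockout libraries, against 142, 118 and 167 FPKM in the WT libraries (limma, adjusted p = 0.0174). Sco2, a copper chaperone for cytochrome oxidase, was at 6.78, 10.9 and 8.95 FPKM in the knockout libraries, against 4.35, 3.47 and 5.88 FPKM in the WT libraries (limma, adjusted p = 0.0491). These 3 genes had no overlap between groups. Of the 3 secreted targets Thbs1, thrombospondin 1, was higher, at 1.94, 3.03 and 2.85 FPKM in the knockout libraries, against 0.713, 1.47 and 0.801 FPKM in the WT libraries (limma, adjusted p = 0.0367). Its WT mean is under the filter.

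The remaining lists had no called gene. Of 6 tested DNA repair targets limma called 0, with 2 higher at an unadjusted p under 0.05 and 1 by voom. The 2 were Xpc, a damage sensor (log2 fold change 0.40; limma, adjusted p = 0.0517), and Polk, a translesion polymerase (0.31; adjusted p = 0.157). Of 5 tested arrest targets limma called 0, with 1 at an unadjusted p under 0.05 and 0 by voom. Plk2, a polo-like kinase, was at 7.24, 9.55 and 4.89 FPKM in the knockout libraries, against 4.85, 3.25 and 2.91 FPKM in the WT libraries (limma, adjusted p = 0.0811). Plk3 ranged from 5.29 to 33.8 FPKM in knockout libraries and from 9.67 to 124 FPKM in WT libraries (limma, adjusted p = 0.391). Of 11 tested regulators of p53 limma called 0, with 0 at an unadjusted p under 0.05 and 0 by voom, and the median log2 fold change was 0.02. The kinase gene Hipk2 (0.33; limma, adjusted p = 0.227) and the acetyltransferase gene Kat5 (0.21; adjusted p = 0.273) had the smallest p among them. The p53 relatives Trp63 and Trp73 were listed at 0 in all libraries.

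**Figure D5:**
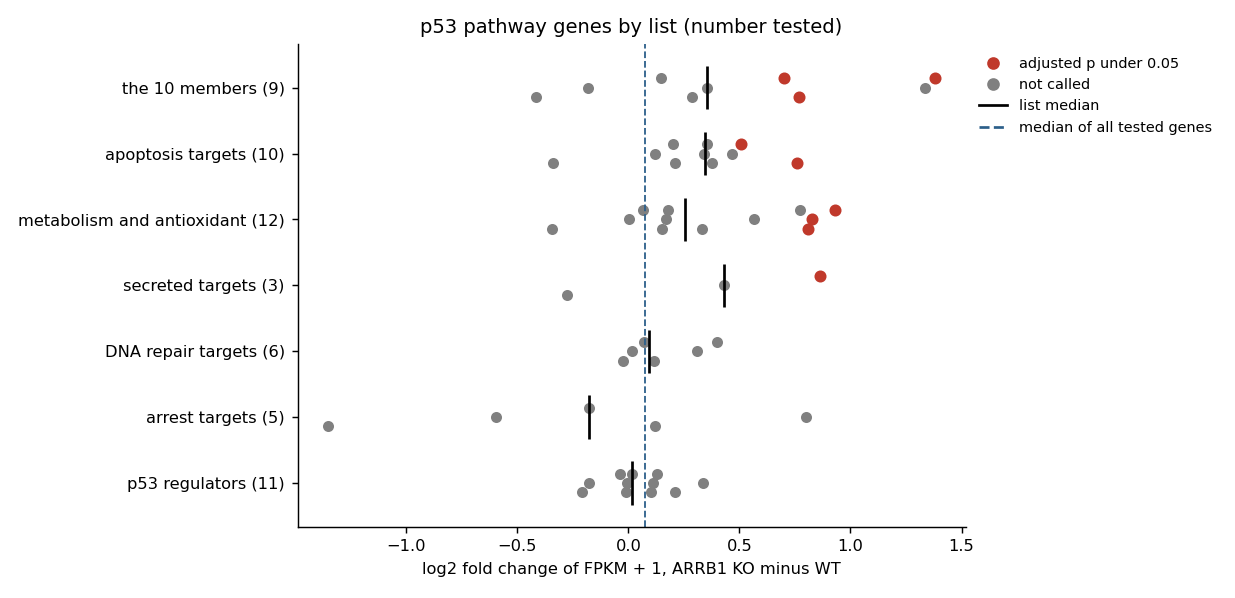
Log2 fold change of FPKM + 1, ARRB1 knockout minus WT, for tested p53 pathway genes by list, with the number tested in brackets. Red points were called, black lines are list medians and the dashed line is the median of all tested genes, 0.07; called genes lie in the members, apoptosis, metabolism and secreted lists.

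Calls in these lists also depended on single libraries. The count of 6 higher genes was 0 without knockout replicate 2, 3 without knockout replicate 3, 2 without WT replicate 1 or WT replicate 2, 4 without WT replicate 3 and 6 without knockout replicate 1. Dglucy was called in each of these but the one without knockout replicate 2. With knockout replicate 1 alone against WT, Dglucy was the 1 gene called (limma, adjusted p = 0.0410). Fas, Aen, Ephx1, Sco2 and Thbs1 had knockout replicate 1 above all WT libraries, with log2 fold changes from 0.45 (Fas) to 0.90 (Ephx1). The shares of all genes called higher without each library, given above for the members, apply here too.

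Most cell cycle genes were low: 4 of the 17 listed passed the filter and 10 had a mean under 0.5 FPKM. Limma called 0 of the 4, with 2 higher at an unadjusted p under 0.05 and 1 by voom. Ccnd1, cyclin D1, was at 9.54, 22.3 and 19.6 FPKM in the knockout libraries, against 5.72, 7.92 and 9.14 FPKM in the WT libraries, with no overlap (log2 fold change 1.02; limma, adjusted p = 0.0813). Mcm2, a replication helicase subunit, had a log2 fold change of 0.42 (limma, adjusted p = 0.143). Cell cycle genes summed to 19.6, 39.1 and 30.1 FPKM in the knockout libraries, against 16.7, 14.6 and 17.7 FPKM in the WT libraries, with knockout replicate 2 the highest. Ccnd1 was then left out, a choice made after the values were seen. Without it the sums were 10.1, 16.8 and 10.5 FPKM in the knockout libraries, against 10.98, 6.66 and 8.56 FPKM in the WT libraries, and the groups overlapped.

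The genes most like 3 members were sought over the 6 libraries by the root-mean-square difference between log2(FPKM + 1) profiles, each centred on its mean. Mfsd2a, a lysophospholipid transporter gene, was nearest to Cdkn1a at 0.212, followed by Krt23 at 0.229 and Cd14 at 0.290. Mfsd2a was at 46.8, 77.7 and 113 FPKM in the knockout libraries, against 23.1, 20.1 and 50.5 FPKM in the WT libraries, so it shared the high WT replicate 3. Spata2l (0.0740), Loxl2 (0.0848) and Sod3 (0.0853) were nearest to Ccng1, and Rock2 (0.0429), Yars (0.0436) and Taok3 (0.0475) to Mdm2. A small difference is easier to reach for a member that varies little.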

How the data were processed

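RNA-seq libraries were compared, 3 ARRB1 knockout and 3 WT, grouped by their titles. The authors deposited FPKM values, 1 per gene and library. The builds mm8 and mm10 and the tools HISAT2 and Bowtie 0.12.2 are named, per the submitters' processing notes; their roles, the annotation, strand and the treatment of multi-mapping reads are not given in the sources used here. Per the labels' protocols, libraries came from 1 ug of total RNA with a TruSeq kit.

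From these values, limma 3.58.1 in R 4.3.3 (lmFit, eBayes with trend, two-sided) was run on log2(FPKM + 1), with no term besides genotype, for genes whose mean reached 1 FPKM, with Benjamini-Hochberg adjustment over all of them. In a library FPKM are whole multiples of the value of 1 read. Whole reads were obtained for all 17549 genes detected in 4 or more libraries (within 0.001 reads plus a small share of the count), taken as the smallest whole-number solution. These reads give the depth and the input to limma's voom. Permutation tests were exact over the 20 ways to split the libraries.

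The members and lists were chosen with earlier results of these data known. Named genes are the members, Arrb1, up to 4 called genes per list (the 2 with the smallest p where none was called) and the 3 genes most like Cdkn1a, Ccng1 and Mdm2; markers called in a cell type list were named after their values were seen. The labels call the libraries a triplicate and do not say that each is 1 animal, so p-values measure the spread between libraries. Alternatives tried: no filter, a 5 FPKM filter, a 0.1 pseudocount, TPM, median-of-ratios and quantile scaling, eBayes without trend or robust, array weights, voom, the replicate block, each library left out and, chosen after seeing the data, knockout replicate 1 alone. Positions are from GENCODE vM21 (GRCm38), promoter windows from RefSeq. Python 3.11.15 with pandas 2.3.3 and matplotlib 3.10.9 was used.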

Additional observations from a re-analysis of the deposited data

How the results depend on the processing

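Of the 9 tested members none changed direction under any alternative apart from Trp53inp1, whose log2 fold change ran from -0.76 (without WT replicate 3) to 0.16 (without WT replicate 2) with 1 library left out. Ccng1 was called under 17 of 18 alternatives (not with knockout replicate 1 alone), Zmat3 under 10 of 17, Phlda3 under 9 of 17 and Cdkn1a under 3 of 18, while Trp53, Mdm2, Bax, Trp53inp1 and Sesn1 were called under none. The 3 higher members became 1 with the filter at 5 FPKM, which leaves Phlda3 and Zmat3 untested, and 0 with knockout replicate 1 alone, with fewer samples; they ranged from 1 to 3 with 1 library left out. With array weights they were 4. With no filter, the one alternative that tested Eda2r, Ccng1 and Eda2r were called and Phlda3 and Zmat3 were not. The share of all tested genes called higher also moved between these alternatives. It was 7.75% with array weights, 7.80% with the filter at 5 FPKM, 2.63% with the replicate block and 0.392% with no filter. The lower members stayed at 0. The 6 higher genes of the wider lists became 2 with no filter, 3 after quantile normalization, 3 with the replicate block and 1 with knockout replicate 1 alone, and ranged from 0 to 6 with 1 library left out; they were 9 on the TPM scale, 9 by voom and 7 with array weights. Over all tested genes the share called higher was 9.31% on the TPM scale, 7.42% by voom and 3.49% after quantile normalization. For no filter, the replicate block and array weights it is given above. The 0 lower genes of the wider lists became 1 after median-of-ratios scaling, quantile normalization or array weights (Bbc3) and 1 with the replicate block (Plk3). The cause of these moves was not tested apart from those named. Deviations from group means correlated between knockout and WT libraries at 0.170, -0.0625 and 0.0966 for numbers 1, 2 and 3. Knockout replicate 1 correlated best with its own number, and knockout replicates 2 and 3 did not. With 3 libraries per group these values cannot decide whether the replicate numbers pair the libraries. With the replicate block Cdkn1a gained a call (limma, adjusted p = 0.0257), Phlda3 (0.0625) and Zmat3 (0.0536) lost theirs, and calls over all genes numbered 280 higher and 122 lower, against 564 and 170 without it. Over all genes, 88 higher and 58 lower were called with no filter, 990 higher on the TPM scale and 352 higher after median-of-ratios scaling. Eda2r and Phlda3 in WT rest on at most 54 reads per library, which limits the precision of their ratios.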
